A study of Homo sapiens with 8 samples.

Results

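Intermediate filament genes encode the proteins of the rope-like cytoskeletal filaments of the cytoplasm and of the lamina under the nuclear envelope. They were followed in H1703, an established human cell line labelled as squamous cell carcinoma of the lung. The set was a list of 10 gene symbols: the neuronal filament gene INA, VIM, NES, the neurofilament genes NEFL and NEFM, the simple-epithelial keratins KRT18, KRT8, KRT19 and KRT7, and the lamin gene LMNA. Members were the rows of the expression tables whose symbol equalled a listed one. Of the 27204 genes and loci in the tables, 9 were members, and NEFM was not analysed here. A further 2 members, NES and NEFL, lay below the level needed for a test (at least 1 FPKM, a read-based level scaled to gene length and library size, in at least 2 libraries), which left 7 tested members.

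The study held 8 RNA-seq libraries in 4 groups of 2, described by the labels as biological repeats. The groups were detached cells with a knockdown of SPIB, detached control cells, attached cells with a knockdown of SPIB, and attached control cells. SPIB encodes an ETS-family transcription factor known from B lymphocytes. Control cells carried a knockdown directed at luciferase, a reporter enzyme that human cells lack, so all 8 libraries came from cells with a knockdown reagent. Detached cells were floating, and the labels attach a floating time of 12 h to all 8 libraries, the attached ones included. Nothing in the labels says whether the repeats were separate cultures, so p-values reflect how far these particular libraries spread, which may be technical.

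Keratins are obligate heteropolymers, in which a type I chain such as KRT18 or KRT19 pairs with a type II chain such as KRT8 or KRT7, and they reach desmosomes and hemidesmosomes through linker proteins. Vimentin, the product of VIM, is the type III filament of mesenchymal cells and is also common in carcinoma lines, while alpha-internexin (INA), nestin (NES) and the neurofilament chains are type IV proteins best known from neurons and their progenitors. LMNA encodes lamins A and C, which line the inner nuclear membrane in most differentiated cells.

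The promoters of INA and VIM are shown first, because INA was the member that fell in both knockdown comparisons whereas VIM passed the test in neither. ETS factors bind DNA around a GGAA core, so GGAA and its reverse complement TTCC are in capitals. Both sequences are the 250 bases before the gene start, 5′ to 3′ on the plus strand, from a RefSeq table on GRCh38.p14, at chr10:103276888-103277137 for INA and chr10:17227991-17228240 for VIM.
INA: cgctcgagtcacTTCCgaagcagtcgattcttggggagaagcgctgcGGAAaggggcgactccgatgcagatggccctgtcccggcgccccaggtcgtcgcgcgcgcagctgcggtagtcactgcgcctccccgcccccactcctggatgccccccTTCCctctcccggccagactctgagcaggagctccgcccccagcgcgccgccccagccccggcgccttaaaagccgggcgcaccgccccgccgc
VIM: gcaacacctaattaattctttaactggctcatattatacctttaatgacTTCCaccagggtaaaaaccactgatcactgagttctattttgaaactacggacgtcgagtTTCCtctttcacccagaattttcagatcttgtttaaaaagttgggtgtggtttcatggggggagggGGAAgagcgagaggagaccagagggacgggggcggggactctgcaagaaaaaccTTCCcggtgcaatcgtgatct
The core was matched 3 times in the INA window and 4 times in the VIM window, on either strand and counting each match once. It was present in 92.7% of all 35116 promoter windows of the same length, so its presence is the usual state. The longer letters GAGGAA, which hold the shorter core, were matched 1 time in the VIM window and not in the INA window, and stood in 23.6% of all windows. The letters GAGGAAGT were found in neither, and in 2.17% of all windows. Promoters of 5 of the 10 members were in the table. In the other matched promoters the core occurred 2 times in KRT8, 4 times in NES, and 2 or 3 times in each of the LMNA windows. A match is a description of the letters and shows no binding.

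SPIB itself could not be followed, since its reads were reported only within 1 merged locus that also holds the DNA polymerase gene POLD1. That locus stood at 41.8 and 44.3 FPKM in detached SPIB-knockdown cells, 44.9 and 49.8 FPKM in detached control cells, 47.5 and 52.5 FPKM in attached SPIB-knockdown cells, and 55.9 and 51.2 FPKM in attached control cells. The libraries therefore enter under their labels, with no check of the knockdown. FPKM sums lay between 707883 and 786285 per library. Relative depth, read from the steps of the lowest values, lay between 0.789 and 1.26 times that of attached control replicate 1, and the absolute depth is unknown. A mitochondrial locus that was the most abundant in the other libraries was listed at 0 in 4 libraries, 1 in each group. Defining squamous markers were low. Of the 5 with a row of their own, TP63, DSG3, DSC3 and PKP1 were below 1 FPKM in all 8 libraries, and SOX2, at 0.734 to 2.68 FPKM, made most of a sum between 1.14 and 3.05 FPKM. The squamous markers KRT5, KRT6A and KRT14 were reported only in merged loci, which held 3.61 to 6.5 FPKM (KRT5 with KRT6A) and 1.07 to 3.54 FPKM (KRT14 with KRT16) in 7 of the 8 libraries and 0 in the other, described next. All 6 epithelial adhesion markers with a row, CDH1 and EPCAM among them, were also below 1 FPKM. CLDN7 and OVOL2 were reported only in merged loci with other genes, at 379 to 410 FPKM and 39.3 to 47.1 FPKM. Their own share of these cannot be told apart. The 7 mesenchymal markers with a row of their own summed to between 45.1 and 54.8 FPKM, but were uneven. ZEB1 held 21.5 to 27.7 FPKM, TWIST1 8.61 to 11.6 FPKM and CDH2 6.58 to 9.94 FPKM. FN1, at 2.05 to 4.42 FPKM, and ZEB2, at 0.427 to 1.97 FPKM, were low, and SNAI2 and SPARC were below 1 FPKM in all 8 libraries. PDGFRA was reported only in a merged locus with FIP1L1, at 153 to 180 FPKM, and is not in the sum. Its share of that locus cannot be told apart. B-lymphocyte markers summed to between 0 and 0.465 FPKM and other leukocyte markers to between 0.152 and 2.65 FPKM. Of 3 endothelial markers only VWF had a row, with at most 0.103 FPKM.

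One library stood apart in low keratins. In attached SPIB-knockdown replicate 2, KRT19 was at 0.26 FPKM, against 2.02 to 4.23 FPKM in the other 7 libraries, and KRT13, a keratin of stratified mucosa, was at 0.128 FPKM, against 0.882 to 2.05 FPKM. The merged locus of the basal keratin KRT5 with KRT6A was listed at 0 there, against 3.61 to 6.5 FPKM elsewhere, and so was that of KRT16 with KRT14, against 1.07 to 3.54 FPKM. S100A9 and S100A8, calcium-binding proteins of neutrophils and stressed squamous epithelium, were listed at 0 as well, against 1.99 to 5.99 FPKM and 0.831 to 2.59 FPKM in the others. In all, 16 genes in that library lay more than 4-fold below the lowest value elsewhere (where that lowest value was at least 0.5 FPKM), and the other libraries held between 1 and 13 such genes. KRT10 and KRT15 showed no such gap. These genes were picked after their values were seen, and the cause was not tested. Results for KRT19 are given below with and without this library.

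**Figure D1:**
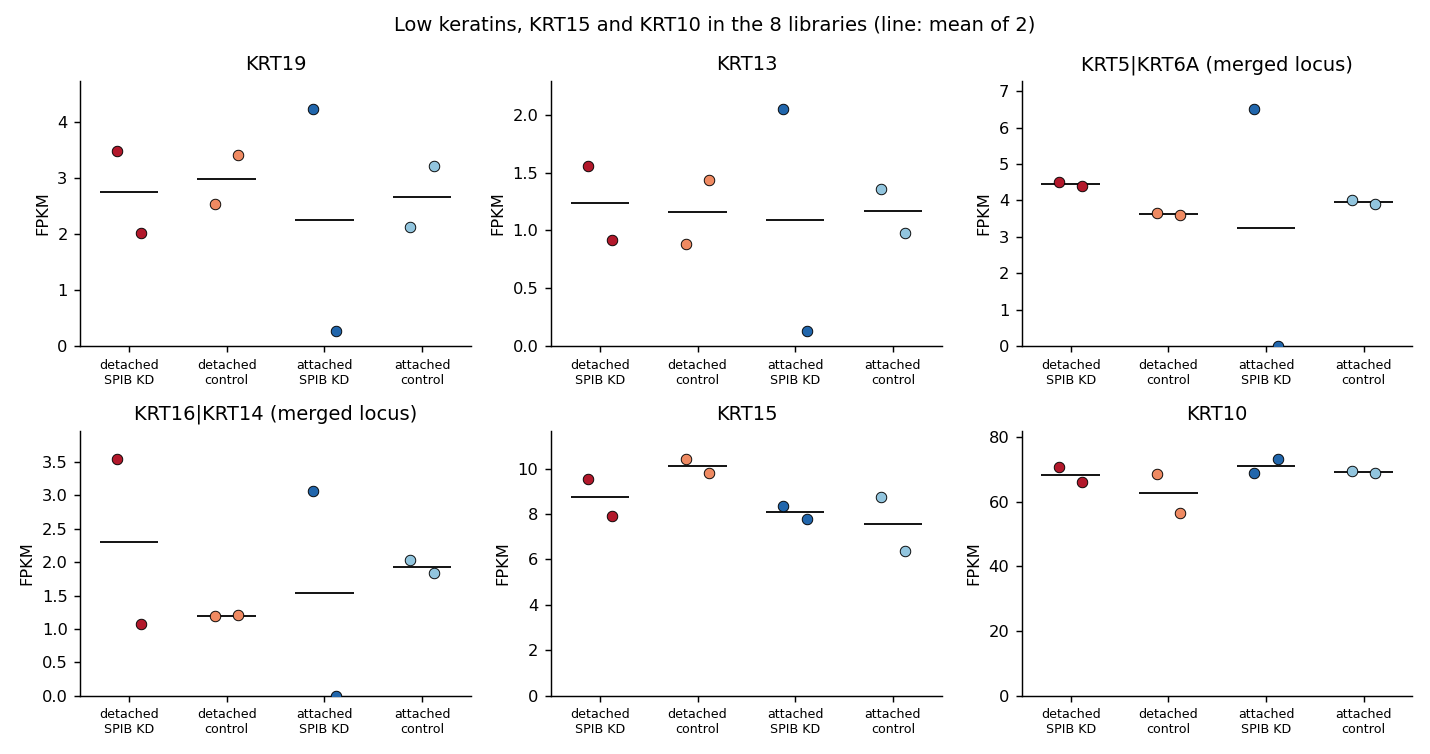
FPKM (linear axis from 0) of 2 single keratins and 2 merged keratin loci, with KRT15 and KRT10 for comparison, in detached SPIB-knockdown (KD), detached control, attached SPIB-knockdown and attached control cells. Points are libraries, replicate 1 left of replicate 2, and lines are means of 2; in the first 4 panels attached SPIB-knockdown replicate 2 lies at or near 0, while KRT15 and KRT10 are measured in all 8 libraries.

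Among the members, VIM dominated in H1703. VIM took between 79.7% and 85.3% of the summed FPKM of the 9 members, a scale that is per length and so allows genes to be compared. LMNA followed with 7.09% to 11.5%, INA with 3.2% to 6.72%, KRT18 with 1.79% to 3.02% and KRT8 with 0.445% to 0.685%. This order, VIM, LMNA, INA, KRT18, KRT8, was the same in each of the 8 libraries. It holds for the members only. Outside the list, LMNB1, at 92.6 to 110.4 FPKM, lay above KRT18 in every library. KRT10, at 56.5 to 73.2 FPKM, lay above KRT18 in every detached library. KRT7, between 1.86 and 5.12 FPKM, and KRT19, between 0.26 and 4.23 FPKM, overlapped and could not be ordered. NES lay between 0.165 and 0.456 FPKM and NEFL between 0.0113 and 0.0847 FPKM. The summed level of all members was 2504 and 2461 FPKM in detached SPIB-knockdown cells, 2616 and 2587 FPKM in detached control cells, 2920 and 2991 FPKM in attached SPIB-knockdown cells, and 2980 and 2963 FPKM in attached control cells. Every detached library thus lay below every attached one, and this sum is mostly VIM. Here as for every gene below, fewer cells that express a gene and less RNA of it per cell cannot be told apart in such bulk libraries.

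**Figure D2:**
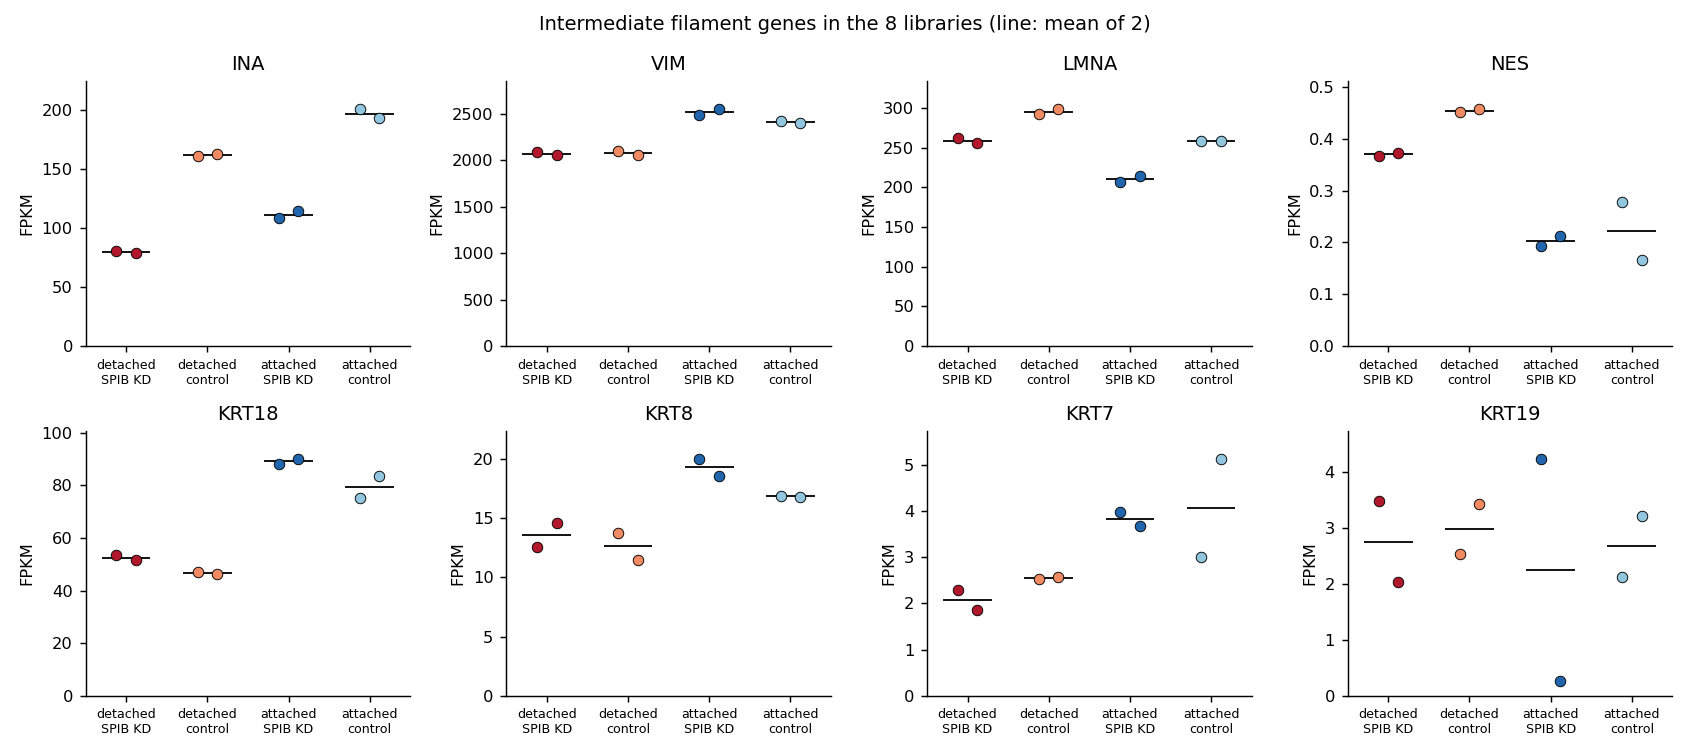
FPKM (linear axis from 0) of 8 members in detached SPIB-knockdown (KD), detached control, attached SPIB-knockdown and attached control cells. Points are libraries, replicate 1 left of replicate 2, and lines are means of 2; INA separates all 4 groups, VIM and KRT18 separate detached from attached libraries, and KRT19 shows the low library of the attached SPIB-knockdown group.

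INA was the only member that changed in all 4 comparisons between groups. It stood at 80.4 and 78.8 FPKM in detached SPIB-knockdown cells, 160.4 and 162 FPKM in detached control cells, 108 and 114 FPKM in attached SPIB-knockdown cells, and 200.1 and 193 FPKM in attached control cells. No 2 of the 4 groups overlapped, and the lowest values belonged to detached cells with the knockdown. SPIB knockdown lowered INA in detached cells by a log2 fold change of -1.01 ± 0.04 (SE; adjusted p = 0.000202, limma on log2(FPKM + 1) with Benjamini-Hochberg adjustment over the 13438 tested genes, n = 2 libraries a group, as in all fits below). In attached cells the change was -0.82 ± 0.04 (limma adjusted p = 0.000718). All 20 alternative settings tried kept both calls.

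Detachment also lowered INA. In SPIB-knockdown cells, the mean was 79.6 ± 1.16 FPKM detached and 110.9 ± 4.19 FPKM attached (SD, n = 2 each), a log2 fold change of -0.47 ± 0.04 (limma adjusted p = 0.00207). In control cells it was 161 ± 1.44 FPKM detached and 196 ± 5.14 FPKM attached, a change of -0.28 ± 0.04 (limma adjusted p = 0.0238). The smaller change in control cells was lost when either detached or either attached control library was left out (limma adjusted p between 0.105 and 0.121), with no intensity trend (0.101) or when only the control groups were fitted (0.0648). The knockdown effect was -0.19 ± 0.06 lower on the log2 scale in detached than in attached cells, a difference with an unadjusted p of 0.0165 and an adjusted p of 0.669 in the limma fit, so the 2 effects were not shown to differ. Neuroendocrine and neuronal markers, mostly the synaptic vesicle gene SYP, summed to between 6.81 and 7.24 FPKM in detached and between 4.8 and 5.4 FPKM in attached libraries. Of the 6 with a row of their own, 5 were below 1 FPKM in all 8 libraries, so these sums follow SYP, at 4.36 to 6.54 FPKM. SYP was thus higher where INA was lower with detachment, and its part in the result was not tested. The INA locus (XLOC_006002, hg19 chr10:105034959-105050147) overlaps a merged locus of INA and RPEL1 by 8522 bases, which held 3.23 to 6.42 FPKM. Adding that locus to INA kept the 4 calls.

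VIM changed with detachment. It stood at 2089 and 2056 FPKM in detached SPIB-knockdown cells, 2097 and 2062 FPKM in detached control cells, 2488 and 2550.1 FPKM in attached SPIB-knockdown cells, and 2424 and 2402 FPKM in attached control cells. All 4 detached libraries lay below all 4 attached ones, and the detached groups overlapped each other. The log2 fold change with detachment was -0.28 ± 0.03 in SPIB-knockdown cells (limma adjusted p = 0.00198) and -0.21 ± 0.03 in control cells (limma adjusted p = 0.00944). Under SPIB knockdown the change was 0.00 ± 0.03 in detached cells (limma adjusted p = 0.964) and 0.06 ± 0.03 in attached cells (limma adjusted p = 0.274). Neither knockdown value passed the test, and the sign of the one in attached cells turned under quantile normalization, to -0.04. The call in control cells was lost without attached control replicate 1 (adjusted p = 0.0851), attached control replicate 2 (0.0857) or detached control replicate 2 (0.0791), and without the filter on low values (0.0677). Without an intensity trend both detachment calls were lost (adjusted p = 0.0588 in SPIB-knockdown and 0.131 in control cells). The VIM locus is XLOC_005253 at hg19 chr10:17266540-17279595, and a VIM antisense locus that overlaps it held 2.86 to 4.63 FPKM.

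The 2 type IV members below the level for a test were close to the floor. NES was at 0.367 and 0.373 FPKM in detached SPIB-knockdown cells, 0.452 and 0.456 FPKM in detached control cells, 0.192 and 0.212 FPKM in attached SPIB-knockdown cells, and 0.277 and 0.165 FPKM in attached control cells. Every detached library was above every attached one, which is the opposite order to VIM, at values too low for the fit. NEFL was at 0.0462 and 0.0755 FPKM in detached SPIB-knockdown cells, 0.0268 and 0.0358 FPKM in detached control cells, 0.0847 and 0.0327 FPKM in attached SPIB-knockdown cells, and 0.0113 and 0.0572 FPKM in attached control cells, with all groups near 0. The third neurofilament chain, NEFH, was the abundant one, at 16.3 to 22 FPKM over the 8 libraries.

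Among the keratins, the type I chain KRT18 showed the most stable change. It stood at 53.4 and 51.8 FPKM in detached SPIB-knockdown cells, 47 and 46.2 FPKM in detached control cells, 88.2 and 90 FPKM in attached SPIB-knockdown cells, and 75.1 and 83.5 FPKM in attached control cells. Detached libraries were all well below attached ones. Detachment lowered KRT18 by a log2 fold change of -0.75 ± 0.06 in SPIB-knockdown cells (limma adjusted p = 0.0012) and by the same -0.75 ± 0.06 in control cells (limma adjusted p = 0.00141), and all 20 alternatives kept both calls. Knockdown libraries were above control libraries in each attachment state, with changes of 0.17 ± 0.06 in detached cells and 0.17 ± 0.06 in attached cells. Neither passed the test (limma adjusted p = 0.313 and 0.209).

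KRT8, the type II partner of KRT18, was lower in detached cells too. It stood at 12.5 and 14.6 FPKM in detached SPIB-knockdown cells, 13.7 and 11.5 FPKM in detached control cells, 20 and 18.6 FPKM in attached SPIB-knockdown cells, and 16.9 and 16.8 FPKM in attached control cells. Detached and attached libraries did not overlap, while the detached groups did. KRT8 fell with detachment in SPIB-knockdown cells, by a log2 fold change of -0.48 ± 0.11 (limma adjusted p = 0.0407). The value in control cells was -0.40 ± 0.11 and did not pass (limma adjusted p = 0.095). Of the 8 fits that left out 1 library, 2 kept the call in SPIB-knockdown cells (adjusted p up to 0.158 over all alternatives), and 4 of the 12 other alternatives did, none of the other 3 scalings among them. Under knockdown KRT8 had changes of 0.10 ± 0.11 in detached cells (limma adjusted p = 0.771) and 0.18 ± 0.11 in attached cells (limma adjusted p = 0.442).

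The ratio of these 2 partners within a library does not depend on that library's scaling. KRT18 over KRT8 was 4.26 and 3.54 in detached SPIB-knockdown cells, 3.42 and 4.01 in detached control cells, 4.41 and 4.83 in attached SPIB-knockdown cells, and 4.44 and 4.96 in attached control cells. All detached libraries were below all attached ones, although the highest detached value lay close to the lowest attached one. On the log2 scale the mean was 1.92 ± 0.15 in detached and 2.22 ± 0.09 in attached libraries (SD, n = 4 each), a difference of -0.30 with an exact two-sided permutation p of 0.0286 (adjusted over 3 ratios, 0.0286), the smallest that 70 splits can give. All 3 ratios gave this same p, so the adjustment left it unchanged. The splits ignored the knockdown state, although each side held knockdown and control libraries, and splits kept within each state were not tested. Within SPIB-knockdown cells the difference was -0.25, and within control cells it was -0.34. The sum of KRT18 and KRT19 over that of KRT8 and KRT7 differed by -0.21 between detached and attached libraries (exact permutation p = 0.0286). KRT18 and KRT8 make up most of these sums, so this restates their ratio and is no separate evidence. The KRT8 locus (XLOC_012274, hg19 chr12:53290977-53343738) and the KRT18 locus (XLOC_010921, hg19 chr12:53342655-53346686) overlap by 1084 bases, and whether the libraries kept strand information is not stated in the sources used. Reads could also be shared with pseudogenes, of which 19 of KRT8 summed to at most 7.9 FPKM and 27 of KRT18 to at most 2.24 FPKM.

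**Figure D3:**
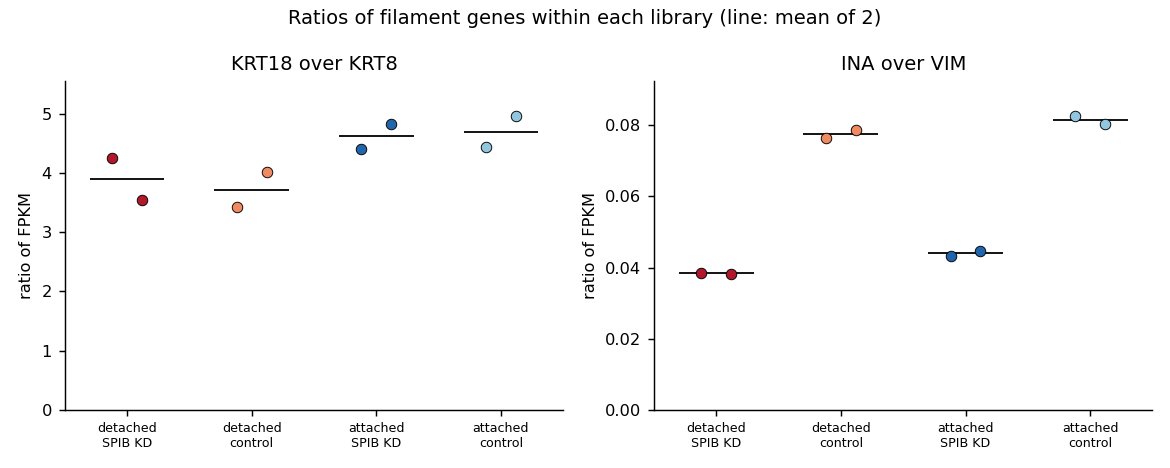
Ratio of FPKM (linear axis from 0) of KRT18 over KRT8 and of INA over VIM in each library of the detached SPIB-knockdown (KD), detached control, attached SPIB-knockdown and attached control groups. Points are libraries, replicate 1 left of replicate 2, and lines are means of 2; the keratin ratio is lower in the 4 detached libraries, and the INA ratio lies near 0.04 in knockdown and near 0.08 in control libraries.

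INA over VIM separated the knockdown instead. The ratio was 0.0385 and 0.0383 in detached SPIB-knockdown cells, 0.0765 and 0.0788 in detached control cells, 0.0434 and 0.0446 in attached SPIB-knockdown cells, and 0.0826 and 0.0803 in attached control cells. Its log2 mean was -4.61 ± 0.11 in SPIB-knockdown and -3.65 ± 0.05 in control libraries (SD, n = 4 each), a difference of -0.95 (exact two-sided permutation p = 0.0286, the smallest possible). The splits ignored the attachment state, although each side held detached and attached libraries. The difference was -1.01 within detached and -0.89 within attached cells. This repeats the fall of INA on a scale free of library scaling and is no separate evidence for it.

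KRT7 and KRT19, found in simple and glandular epithelia, were low and noisy. KRT7 was at 2.28 and 1.86 FPKM in detached SPIB-knockdown cells, 2.52 and 2.57 FPKM in detached control cells, 3.97 and 3.66 FPKM in attached SPIB-knockdown cells, and 3 and 5.12 FPKM in attached control cells. All detached libraries lay below all attached ones, but neither comparison passed the test, with log2 fold changes of -0.65 ± 0.20 in SPIB-knockdown cells (limma adjusted p = 0.104) and -0.48 ± 0.20 in control cells (limma adjusted p = 0.238). The value in SPIB-knockdown cells passed without attached control replicate 1 (adjusted p = 0.0473) or 2 (0.0497). KRT19 was at 3.49 and 2.02 FPKM in detached SPIB-knockdown cells, 2.54 and 3.42 FPKM in detached control cells, 4.23 and 0.26 FPKM in attached SPIB-knockdown cells, and 2.12 and 3.22 FPKM in attached control cells. Its groups overlapped throughout. The library that stood apart set its sign. With that library the change under knockdown in attached cells was -0.50 ± 0.58 and without it 0.53, while the change with detachment in SPIB-knockdown cells was 0.52 ± 0.58 with it and -0.51 without it, and none of these passed the test (limma adjusted p between 0.416 and 0.724). KRT7 lies at XLOC_010907, hg19 chr12:52623768-52645970, and KRT19 at XLOC_022514, hg19 chr17:39679869-39686507.

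LMNA was higher in detached cells, where INA, VIM and KRT18 were lower. It stood at 262 and 255 FPKM in detached SPIB-knockdown cells, 293 and 298 FPKM in detached control cells, 207 and 214 FPKM in attached SPIB-knockdown cells, and 258.5 and 258.5 FPKM in attached control cells. Detached libraries were above attached ones both with and without the knockdown, and knockdown libraries were below control ones within each attachment state. With detachment LMNA rose by 0.30 ± 0.04 on the log2 scale in SPIB-knockdown cells (limma adjusted p = 0.00604) and by 0.19 ± 0.04 in control cells (limma adjusted p = 0.037). With the knockdown it fell in attached cells, by a log2 fold change of -0.30 ± 0.04 (limma adjusted p = 0.0101). In detached cells the value was -0.19 ± 0.04, which did not pass (limma adjusted p = 0.0721), and the difference between the 2 knockdown effects was 0.10 ± 0.05 (limma adjusted p = 0.774). The mean was 259 ± 4.82 FPKM in detached SPIB-knockdown cells and 258.5 ± 0.01 FPKM in attached control cells (SD, n = 2 each).

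The LMNA locus is XLOC_001597 at hg19 chr1:156052364-156110097. Leaving out any 1 of the 8 libraries ended the call for detachment in control cells (adjusted p up to 0.189), as did a term for the libraries with the mitochondrial locus at 0 (0.0556) and a fit without the filter (0.0706), without the trend (0.157) or of the control groups alone (0.0788). The call for detachment in SPIB-knockdown cells was lost without the trend (0.0569). The call for knockdown in attached cells was lost without attached control replicate 1 (adjusted p = 0.0847), attached control replicate 2 (0.0865) or attached SPIB-knockdown replicate 1 (0.0622), without the trend (0.0977) and in a fit of the attached groups alone (0.0629). The value for knockdown in detached cells passed after rescaling without small RNA, ribosomal RNA and mitochondrial genes (adjusted p = 0.0455).

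**Figure D4:**
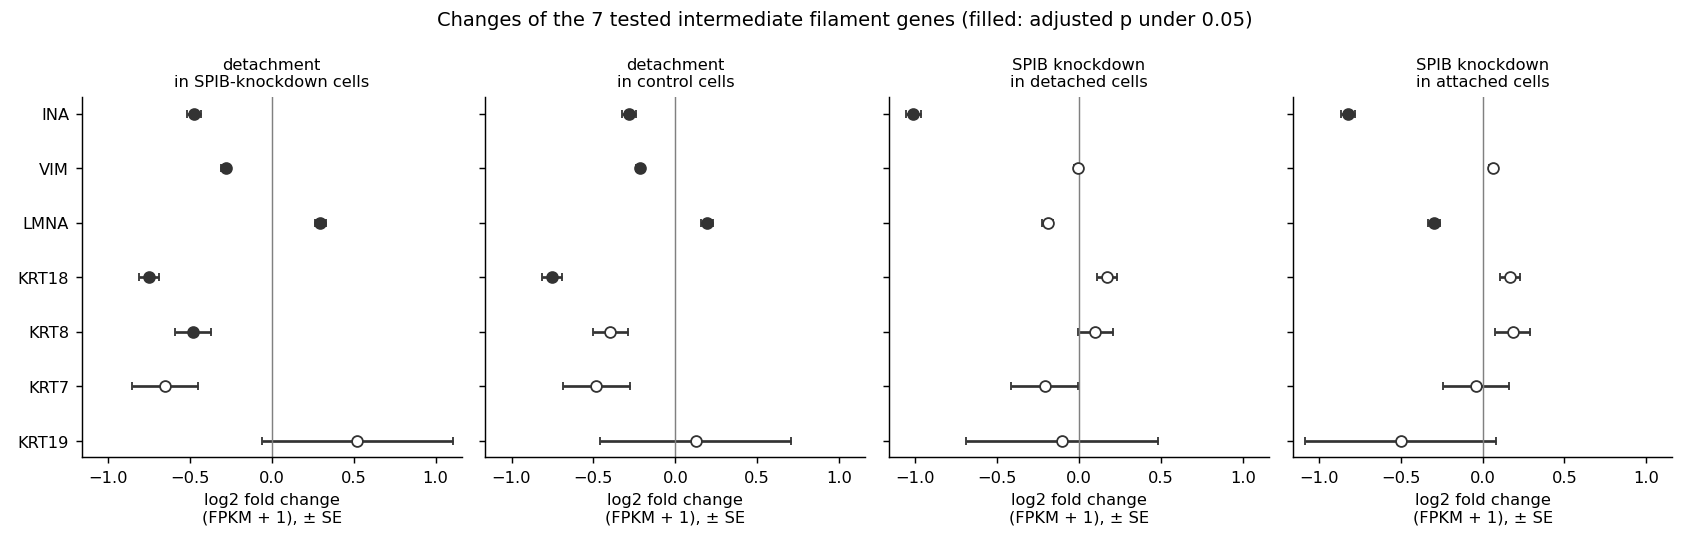
Log2 fold changes of FPKM + 1 (horizontal axis, with standard errors from the limma fit) of the 7 tested members for detachment (detached over attached) in SPIB-knockdown and control cells and for SPIB knockdown (knockdown over control) in detached and attached cells. Filled points have an adjusted p under 0.05; INA is filled in all 4 panels, VIM and KRT18 in both detachment panels, and LMNA lies right of 0 with detachment and left of 0 with knockdown.

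Counted together, detachment in SPIB-knockdown cells changed 5 of the 7 tested members: 4 fell and 1 rose. The comparison called 7.11% of all tested genes, 5.06% lower and 2.05% higher. In control cells 3 members fell and 1 rose, where 3.15% of all genes were called, 2.25% lower and 0.893% higher. The median log2 fold change of the 7 was -0.47 in SPIB-knockdown cells and -0.28 in control cells, against -0.02 and -0.01 over all tested genes. SPIB knockdown changed fewer members: in detached cells 1 fell and 0 rose, where 0.737% of all genes were called (0.662% lower and 0.0744% higher), and in attached cells 2 fell and 0 rose, where 1.85% were called (1.21% lower and 0.64% higher). The medians of the 7 were -0.10 in detached and -0.04 in attached cells. No member was shown to have a knockdown effect that differed between attachment states. No gene passed that test at an adjusted p under 0.05 in limma (0 of 13438, with 898 at an unadjusted p under 0.05). With 2 libraries a group this does not show that the effects were equal. The 4 comparisons share libraries in pairs, so their counts are not independent. Members were chosen with earlier results of these data known, so their counts beside the shares over all genes are no test of the set. The shares also depend on level. With a filter at 5 FPKM, detachment in SPIB-knockdown cells called 1123 of 9776 genes, against 956 of 13438 here. INA, VIM, LMNA, KRT18 and KRT8 lay above 5 FPKM in all 8 libraries.

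The split of calls by direction depended on the scaling. With detachment, 276 genes were called higher and 680 lower in SPIB-knockdown cells, and 120 and 303 in control cells. Quantile normalization gave 334 and 350 in SPIB-knockdown cells and 159 and 182 in control cells. Rescaling after leaving out small RNA, ribosomal RNA and mitochondrial genes gave 421 and 417 in SPIB-knockdown cells and 182 and 211 in control cells. Median of ratios scaling gave 343 and 503 in SPIB-knockdown cells and 132 and 234 in control cells. INA, VIM, KRT18 and LMNA kept the direction of their detachment values under each of these scalings.

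Of 50 further intermediate filament genes, 31 had a row of their own and 8 could be tested. Among these KRT80, a type II keratin, was the one that passed in any comparison. It stood at 0.994 and 1.13 FPKM in detached control cells and at 2.41 and 2.75 FPKM in attached control cells, and fell with detachment by a log2 fold change of -0.80 ± 0.15 (limma adjusted p = 0.0419). Its level was near the limit for testing, and 7 of 19 alternatives kept the call. The most abundant others did not pass in any comparison: LMNB1, the B-type lamin, at 92.6 to 110.4 FPKM, KRT10, a keratin of differentiated epidermis, at 56.5 to 73.2 FPKM, and NEFH. SYNM, which copolymerises with vimentin, was at 9.97 to 17.1 FPKM, with log2 fold changes for detachment of 0.40 ± 0.10 in SPIB-knockdown cells (limma adjusted p = 0.0542) and 0.21 ± 0.10 in control cells (limma adjusted p = 0.278). The median of the 8 was between -0.09 and 0.02 on the log2 scale over the 4 comparisons. LMNB2 was reported only in a merged locus with TIMM13, which fell with detachment in SPIB-knockdown cells, by a log2 fold change of -0.27 ± 0.04 (limma adjusted p = 0.0153, kept by 14 of 20 alternatives).

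Linkers and anchors of the filaments changed gene by gene. Of 22 listed, 20 had a row of their own and 13 were tested. ITGA6, the integrin alpha chain of hemidesmosomes and laminin receptors, stood at 103 and 101 FPKM in detached SPIB-knockdown cells, 97.4 and 93.1 FPKM in detached control cells, 162 and 169 FPKM in attached SPIB-knockdown cells, and 111 and 115 FPKM in attached control cells. The attached SPIB-knockdown libraries were above all the rest. The listed hemidesmosome genes ITGB4 and COL17A1 were far lower, at 0.87 to 1.15 FPKM and 1.09 to 1.6 FPKM, and passed in no comparison. The ITGA6 values are thus no measure of hemidesmosomes. ITGA6 fell with detachment in SPIB-knockdown cells by a log2 fold change of -0.70 ± 0.05 (limma adjusted p = 0.000547) and rose with the knockdown in attached cells by 0.55 ± 0.05 (limma adjusted p = 0.0035). All 20 alternatives kept both calls. Its fall with detachment in control cells, -0.24 ± 0.05 (limma adjusted p = 0.0405), was kept by 4 of them. The knockdown effect on ITGA6 was lower in detached than in attached cells by -0.46 ± 0.06 (unadjusted p = 0.000156, limma adjusted p = 0.375), which did not pass.

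PERP, a tetraspan protein of desmosomes, was at 64.8 and 56.8 FPKM in detached SPIB-knockdown cells, 82.2 and 89.3 FPKM in detached control cells, 61.6 and 60 FPKM in attached SPIB-knockdown cells, and 84.8 and 85 FPKM in attached control cells. Knockdown libraries were below control libraries in both attachment states. PERP fell with the knockdown by a log2 fold change of -0.49 ± 0.07 in detached cells (limma adjusted p = 0.0332, kept by 8 of 20 alternatives) and -0.47 ± 0.07 in attached cells (limma adjusted p = 0.0256, kept by 13). DST, a spectraplakin that ties filaments to other cytoskeletal systems, fell with detachment in SPIB-knockdown cells by -0.36 ± 0.07 (limma adjusted p = 0.0263, kept by 13 of 20 alternatives). Plectin (PLEC), the main cross-linker of intermediate filaments, was at 152 to 183 FPKM, the highest mean of the list over the 8 libraries, and passed in no comparison, nor did the desmosomal plaque genes DSP, at 12.3 to 14.8 FPKM, and PKP4, at 25.8 to 42.8 FPKM. In each comparison the medians of the 13 were between -0.09 and 0.06.

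The keratin KRT17 and the plakoglobin gene JUP were reported as 1 merged locus, picked here after its values were seen. It stood at 24.7 and 26.2 FPKM in detached SPIB-knockdown cells, 41.7 and 45.1 FPKM in detached control cells, 19.1 and 14.6 FPKM in attached SPIB-knockdown cells, and 33 and 32.8 FPKM in attached control cells. Knockdown libraries lay below control libraries, and detached above attached both with and without the knockdown. The locus fell with the knockdown by a log2 fold change of -0.75 ± 0.11 in detached cells (limma adjusted p = 0.0378) and -0.94 ± 0.11 in attached cells (limma adjusted p = 0.0109), and rose with detachment in SPIB-knockdown cells by 0.58 ± 0.11 (limma adjusted p = 0.0282). Of 20 alternatives, 10 kept the call in detached cells, 15 that in attached cells and 12 that of detachment (adjusted p up to 0.242, 0.0865 and 0.138). Which of its genes moved cannot be told apart.

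Of 20 partners and processing enzymes of the nuclear lamina, 15 had a row of their own and all 15 were tested. ICMT, which methylates the prenylated end of lamin precursors and of other proteins, was at 19.1 and 19.5 FPKM in detached SPIB-knockdown cells, 26.9 and 29.9 FPKM in detached control cells, 22.6 and 18 FPKM in attached SPIB-knockdown cells, and 30.1 and 31.4 FPKM in attached control cells. Knockdown libraries were below all control libraries. ICMT fell with the knockdown in attached cells by a log2 fold change of -0.58 ± 0.11 (limma adjusted p = 0.0472, kept by 9 of 20 alternatives), and the value in detached cells was -0.53 ± 0.11 (limma adjusted p = 0.0951). With detachment in SPIB-knockdown cells 2 genes fell: BANF1, which bridges DNA and the lamina, by -0.20 ± 0.04 (limma adjusted p = 0.038), and the nuclear pore gene NUP153 by -0.25 ± 0.06 (limma adjusted p = 0.0403). That comparison called 5.06% of all tested genes lower. Of 20 alternatives, 6 kept the call of BANF1 and 5 that of NUP153. The remaining 12 passed in no comparison, and the medians of the 15 were between -0.06 and 0.03.

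**Figure D5:**
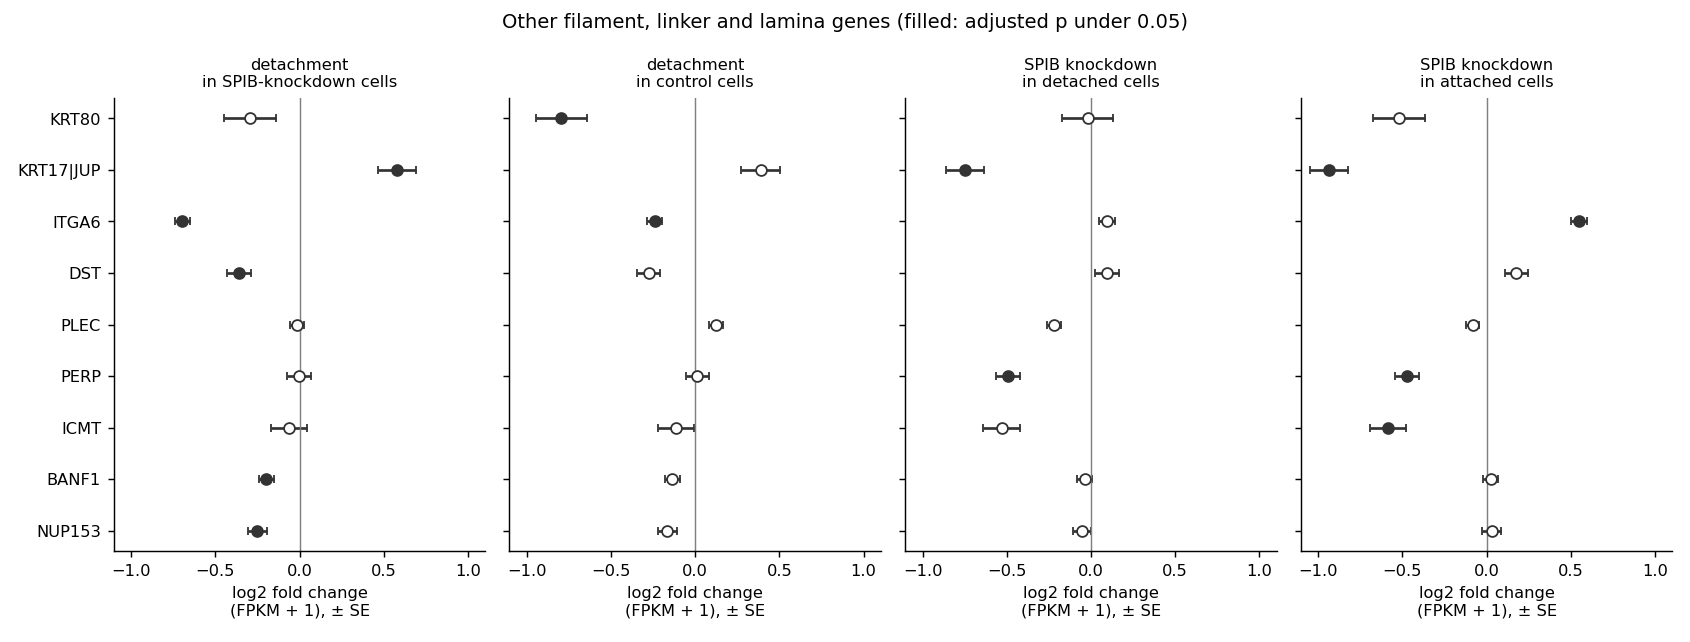
Log2 fold changes of FPKM + 1 (horizontal axis, with standard errors from the limma fit) of KRT80, the merged KRT17 and JUP locus, the linkers ITGA6, DST, PLEC and PERP, and the lamina genes ICMT, BANF1 and NUP153, in the same 4 comparisons. Filled points have an adjusted p under 0.05; ITGA6 lies left of 0 with detachment and right of 0 with knockdown in attached cells, while PERP and the merged locus lie left of 0 in both knockdown panels.

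The genes whose pattern over the 8 libraries was most like that of 2 members were found by the root mean square difference of log2(FPKM + 1), each gene centred on its own mean, among 7904 genes with a mean of at least 5 FPKM. For INA these were the transcription factor gene NFE2L3 (difference 0.109), the endoplasmic reticulum gene EI24 (0.152), the actin regulator ENAH (0.158), BTBD1 (0.167) and the septin gene SEPT2 (0.17). NFE2L3 was at 3.48 and 3.5 FPKM in detached SPIB-knockdown cells, 7.75 and 8.11 FPKM in detached control cells, 6.4 and 5.52 FPKM in attached SPIB-knockdown cells, and 10.4 and 11.4 FPKM in attached control cells, which is the order of groups seen for INA. For KRT18 they were the forkhead gene FOXD1 (0.0524), ETS1 (0.0762), which encodes another ETS-family factor, TEAD1 (0.0776), DDAH1 (0.0924) and CTNNAL1 (0.097). FOXD1 was at 25 and 22.6 FPKM in detached SPIB-knockdown cells, 20.7 and 19.6 FPKM in detached control cells, 40.2 and 41.6 FPKM in attached SPIB-knockdown cells, and 36.5 and 37.2 FPKM in attached control cells. These points share their libraries and scaling, and the likeness is a description.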

How the data were processed

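For each of the 8 libraries the authors deposited a table of FPKM (fragments mapped per kilobase of transcript and per 1000000 fragments in all) over 28590 loci. The submitters' processing notes name HISAT, Cuffnorm and hg19. Tool versions, annotation and strandedness are not given in the sources used. FPKM holds no read totals, so a count test could not be run, and values at 0 can be failed estimates.

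Rows of 1 symbol were summed, which left 27204 genes and loci. Merged loci of several symbols (1961) were kept whole. Genes with at least 1 FPKM in at least 2 libraries (13438) were tested on log2(FPKM + 1), a scale that understates changes of low genes, with limma 3.58.1 in R 4.3.3. The fit had 1 mean per group over all 8 libraries, an intensity trend, with 3.42 prior beside 4 residual degrees of freedom. All tests were two-sided; "rose" and "fell" mean an adjusted p under 0.05 (Benjamini-Hochberg). The fit was tested on simulated data. Ratios were compared with an exact permutation test, two-sided, over free splits of all 8 libraries.

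All members are named, with each gene of the 3 further lists that passed in any comparison and up to 4 more of each list with the highest mean FPKM. ITGB4 and COL17A1 are named besides, for their low level beside ITGA6. Members, lists and rules were chosen with earlier results of these data known. The libraries with the mitochondrial locus at 0 form no group of the study and hold 1 library of every group; a term for them was an alternative chosen after seeing the data. Other alternatives changed the pseudocount (0.1 or 5), the filter, the scaling, the trend, the libraries in the fit, or added the replicate number as a block.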

Additional observations from a re-analysis of the deposited data

How the results depend on the processing

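Genes called by detachment (SPIB-knockdown cells, then control cells) and by SPIB knockdown (detached, then attached) numbered 956, 423, 99 and 248. In that order, they numbered 476, 190, 61 and 110 without the filter, 348, 120, 26 and 66 with no intensity trend, and 314, 81, 9 and 46 when only the 2 groups compared were fitted. With a term for the libraries with the mitochondrial locus at 0 they were 769, 251, 65 and 135. Leaving out 1 library in turn gave 150 to 723, 56 to 270, 10 to 69 and 38 to 143, and 0 to 3 for the difference between the knockdown effects. The cause of these losses was not tested.

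Replicate numbers gave no pairing that held across all groups. Same-numbered deviations of detached SPIB-knockdown, detached control and attached control libraries correlated at 0.174 to 0.267 with each other and at -0.185 to -0.139 with those of attached SPIB-knockdown libraries. The mitochondrial locus was at 0 in replicate 1 of the first 3 groups and replicate 2 of the last, so the term for it, above, groups the libraries in the same way. With the replicate block the counts were 903, 334, 70, 198 and 0, the calls of KRT8 with detachment in SPIB-knockdown cells (adjusted p = 0.0579) and LMNA with detachment in control cells (0.0524) were lost and no other member call was, and the mean ratio differences were -0.296 (KRT18 over KRT8), -0.952 (INA over VIM) and -0.208 (type I over type II), each with p = 0.125 in an exact sign-flip test, the smallest that 4 pairs allow. Leaving out 1 library gave KRT18 over KRT8 differences of -0.351 to -0.246 and type I over type II differences of -0.265 to -0.154, with an exact permutation p of 0.0571 wherever an attached library was left out. Of INA over VIM, the differences were -1.01 within detached and -0.888 within attached cells.

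Values that changed sign were all of members that had not passed. Leaving out 1 library gave, for KRT19, -0.51 to 1.55 and -0.093 to 0.34 with detachment in SPIB-knockdown and control cells, -0.39 to 0.18 and -1.53 to 0.53 with knockdown in detached and attached cells, and -0.63 to 1.42 for the difference between these. The range was -0.35 to 0.27 for KRT7 with knockdown in attached cells and -0.48 to 0.14 for its difference. It was -0.017 to 0.0075 for VIM and -0.019 to 0.22 for KRT8 with knockdown in detached cells. For the difference it was -0.20 to 0.033 for KRT8 and -0.074 to 0.077 for KRT18, which a pseudocount of 5 set at -0.0033. Quantile normalization set VIM at -0.044 with knockdown in attached cells and at 0.020 for the difference. Depth is unknown, and 2 libraries a group limit the precision, with standard errors of 0.58 for KRT19 and 0.15 for KRT80 against 0.04 for INA.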
